A study of Mus musculus with 10 samples.

Results

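The genes described here encode titin and proteins of the Z-disc and M-band of the sarcomere: Ttn, Myom1, Actn2, Ldb3, Myoz2, Tcap, Csrp3, Trim55, Nexn and Flnc. These 10 genes were chosen by name, and each was found under 1 Ensembl gene ID among the 36191 IDs of the deposited count table. RNA was sequenced from mouse embryonic stem (ES) cells that lack Rybp (Rybp null mutant) and from wild type ES cells, both of strain background 129x1 x 129S1, and from cardiac differentiation cultures grown out of each through hanging-drop embryoid bodies. Each genotype had 1 library at day 0, which is the undifferentiated ES cell, and 2 libraries at each of days 8 and 14, so that 10 libraries form 6 groups. The labels name no clone and do not say whether replicates came from separate cultures, so p-values measure only the spread between these libraries, which may be technical. The libraries were made from whole cultures, in which fewer muscle cells and less RNA per muscle cell cannot be told apart.

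Titin is a giant elastic protein that runs from the Z-disc, the border of the sarcomere, to the M-band at its centre, and serves as a spring and as a ruler for thick filament assembly. At the Z-disc, alpha-actinin crosslinks actin filaments of neighbouring sarcomeres, and titin, the PDZ-LIM protein Ldb3 (also called ZASP or Cypher), the calcineurin-binding protein myozenin 2 (Myoz2), telethonin (Tcap, which caps the end of titin) and the LIM protein Csrp3 are tied to that lattice. At the M-band, myomesin (Myom1) crosslinks myosin filaments and binds titin. Trim55 (MuRF2) is a ubiquitin ligase of muscle that associates with titin, and nexilin (Nexn) and filamin C (Flnc) are actin-binding proteins found at the Z-disc.

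Promoter sequences are shown for Ttn, Myom1 and Ldb3, which were called lower in null cultures at day 8. Flnc is shown beside them, as its estimate was higher there, although it was not called and its groups overlapped. The RefSeq promoter table (GRCm38.p6, not the build of the counts) held windows for 7 of the 10 genes, 10 windows in all, since Ldb3, Csrp3 and Flnc have 2 starts each; Tcap, Trim55 and Nexn are named only. The 250 bases before each start were searched on both strands for the MEF2 consensus and the CArG box (the binding sequence of SRF), which are named here without letters, for the MCAT motif CATTCC, for TATAAA and for the GATA-type motif AGATAA. The 180 bases before the start are printed 5′ to 3′ in the direction of transcription, with the matches in capitals.
Ttn, chr2:76982548-76982727, minus strand: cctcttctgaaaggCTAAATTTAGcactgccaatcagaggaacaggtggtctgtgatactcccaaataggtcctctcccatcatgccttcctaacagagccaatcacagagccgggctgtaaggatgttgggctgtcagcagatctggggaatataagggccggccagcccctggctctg
Myom1, chr17:71019377-71019556, plus strand: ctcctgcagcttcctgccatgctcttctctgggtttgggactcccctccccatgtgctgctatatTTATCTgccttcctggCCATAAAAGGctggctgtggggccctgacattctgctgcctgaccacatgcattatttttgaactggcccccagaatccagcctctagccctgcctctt
Ldb3 (start 1), chr14:34588608-34588787, minus strand: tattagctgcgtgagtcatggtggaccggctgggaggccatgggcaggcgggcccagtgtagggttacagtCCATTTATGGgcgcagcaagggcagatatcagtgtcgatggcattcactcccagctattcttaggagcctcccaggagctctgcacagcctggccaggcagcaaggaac
Flnc (start 2), chr6:29433076-29433255, plus strand: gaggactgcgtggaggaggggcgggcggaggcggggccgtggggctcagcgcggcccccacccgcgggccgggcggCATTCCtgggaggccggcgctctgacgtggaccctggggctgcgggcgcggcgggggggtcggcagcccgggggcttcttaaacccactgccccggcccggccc
The capitals mark a MEF2 match that begins 166 bases before the Ttn start. In the Myom1 window they mark a CArG match at 99 bases and an AGATAA match, on the other strand, at 115 bases. In the Ldb3 window they mark a CArG match at 109 bases before start 1, the same site that lies 35 bases before start 2, and in the Flnc window a CATTCC match at 104 bases. The Actn2 window, not printed, held no match of any searched motif, and Actn2 had a log2 fold change, null over wild type, of −2.41 at day 8. Among the other windows, the only further match was a MEF2 match 33 bases before the Myoz2 start. MEF2 matches were present in 2.92%, CArG matches in 1.47%, CATTCC in 12.6%, TATAAA in 12.4% and AGATAA in 9.99% of all 32851 promoter windows of that length. No searched motif overlapped another in the member windows, and a match describes the letters only.

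Library totals ran from 3028153 to 6890792 counts, and each level here is in CPM, a count relative to the total of its library, with the totals adjusted by TMM factors. At that depth 1 count is worth a fraction of a CPM, so genes with a few counts carry a wide counting error, and counting intervals (exact, 95%) cover that error alone. As a check of the labels, Rybp held 1 to 4 counts in the null libraries and 64 to 231 in the wild type libraries. The 13 cardiomyocyte markers checked summed to 118 and 48.6 CPM in null against 1429 and 1297.5 CPM in wild type cultures at day 8, and to 164 and 217.5 CPM against 751 and 680.0 CPM at day 14. Of the 11 of these markers that were tested, 9 were lower in null cultures at day 8 and 5 at day 14. Of all tested genes 0.759% and 0.354% were lower. Myl2, Myl3 and Myl7 held at most 8 counts in any null library, too few to reach the filter on low counts, 2.89 CPM by library total. They thus entered the test only through wild type libraries and had to differ. All of them are among the markers lower at day 8, and Myl3 is among those lower at day 14. Nppa and Nppb held at most 3 counts in any library. The 12 skeletal muscle markers summed to 14.5 and 18.1 CPM in null against 26.5 and 31.0 CPM in wild type cultures at day 8, and to 10.4 and 9.4 CPM against 37.1 and 25.3 CPM at day 14. Of these markers 4 (Myod1, Myf5, Myf6 and Ckm) held 0 in every library. Only 5 of the 12 were tested. None was called between the genotypes at either day, where 1.26% and 0.613% of all tested genes were called. At each day 4 of the 5 had a lower estimate in null cultures, and the median log2 fold changes of the 5 were −1.46 and −1.75. Of 6 smooth muscle markers the summed level was 733 and 376 CPM in null against 1057 and 960.4 CPM in wild type cultures at day 8, and of 4 fibroblast markers it was 4176 and 1782 CPM against 3436 and 2856 CPM. At day 14 the smooth muscle sum was 351 and 360.1 CPM in null against 484 and 408 CPM in wild type cultures, and the fibroblast sum 7502 and 8227 CPM against 6258 and 6939 CPM. The 4 endothelial markers summed to 296 and 249.5 CPM in null against 418 and 399 CPM in wild type cultures at day 8, and to 134 and 95.4 CPM against 179 and 134.8 CPM at day 14. At day 14, 3 of the 4 had a lower estimate in null cultures, and only Tek was called (log2 fold change −1.43, edgeR adjusted p = 0.0135). Cdh5 went the other way, at 55.7 and 38.1 CPM in null against 19.5 and 6.64 CPM in wild type cultures. Its log2 fold change of 1.86 (SE 0.41, edgeR adjusted p = 0.0675) did not pass. The 6 ES cell markers summed to 55.9 and 111 CPM in null against 23.6 and 34.1 CPM in wild type cultures at day 8. Of these sums Nanog alone held 40.4 and 88.9 CPM in null against 16.3 and 27.3 CPM in wild type cultures. Esrrb (log2 fold change 3.33, edgeR adjusted p = 0.0473) and Dppa5a (3.22, adjusted p = 0.0144) were called higher. Of the 6, 1 had a lower estimate, Sox2 (−0.58, edgeR adjusted p = 0.551), at 2.90 and 2.88 CPM in null against 4.79 and 3.95 CPM in wild type cultures. At day 14 the ES cell sums were 44.2 and 20.3 CPM in null against 42.3 and 28.3 CPM in wild type cultures. There 2 of the 6 had a lower estimate, the lowest being −1.48 for Sox2 (edgeR adjusted p = 0.145). Null replicate 1 of day 8 stood above replicate 2 in the cardiomyocyte, smooth muscle and fibroblast sums and below it in the ES cell sum. The part of cell composition in the results that follow was not tested.

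Titin transcripts were far lower in null cultures than in wild type cultures at both days. Ttn (ENSMUSG00000051747, chromosome 2) was at 19.8 and 31.4 CPM in the null libraries of day 8, against 1258.5 and 918 CPM in the wild type libraries. At day 14 it was at 40.8 and 57.8 CPM in the null libraries, against 347 and 292 CPM in the wild type libraries. The groups did not overlap at either day, and the lowest wild type library stood well above the highest null library. The log2 fold change, null over wild type, came to −5.42 at day 8 (SE 0.28, 95% interval −6.04 to −4.80, adjusted p = 1.22e-06 in edgeR's quasi-likelihood test) and −2.69 at day 14 (SE 0.25, interval −3.24 to −2.14, adjusted p = 0.000347). Ranked by p among the 15819 genes tested, Ttn was number 2 at day 8 and number 6 at day 14.

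Titin counts were also present in undifferentiated ES cells. The day 0 null library held 780 Ttn counts (132 CPM) and the wild type library 1033 (341 CPM), which makes a ratio of 0.387 (counting interval 0.352 to 0.425). Each genotype had 1 library there, so this difference has no replicate check. Of the 10865 genes at 5 CPM or more in at least 1 of the day 0 libraries, 4.89% were lower in the null library by 2-fold or more and 8.42% higher. Divided by the 116825 exon bases annotated for Ttn, these levels are 1.13 CPM per kb for null and 2.92 CPM per kb for wild type ES cells; at day 8 they are 0.219 CPM per kb for null and 9.32 CPM per kb for wild type cultures. The order of the group levels was wild type day 8, wild type day 0, wild type day 14, null day 0, null day 14 and null day 8. Wild type day 0 and day 14 were neighbours that did not separate, since 341 CPM lies between the 2 libraries of day 14. The antisense gene Gm13938, which overlaps Ttn exons, held 0 to 26 counts per library, and the strand setting of the counting is not given in the sources used here.

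Titin moved in opposite directions from ES cells to day 8 in the genotypes. In null cells Ttn fell, with a log2 fold change of −2.37 (SE 0.29, edgeR adjusted p = 5.85e-05), and in wild type cells it rose, with 1.67 (SE 0.31, adjusted p = 0.000949). The difference between these changes was −4.05 on the log2 scale (SE 0.43, adjusted p = 0.00831), in a test added after the data were seen in which 0.0316% of genes passed (0.0126% lower and 0.019% higher), 5 genes in all, and Ttn had the lowest p. The day 0 libraries have no replicate and were assumed to vary like the other groups, and without wild type day 8 replicate 1 the adjusted p of this difference was 0.0633. From day 8 to day 14 Ttn rose by 0.96 on the log2 scale in null cultures (SE 0.26, adjusted p = 0.0442) and fell by 1.77 in wild type cultures (SE 0.24, adjusted p = 0.00162). The rise in null cultures no longer passed without any 1 of 6 of the 8 libraries of those days (adjusted p = 0.0602 to 0.258); only without null day 8 replicate 2 or null day 14 replicate 1 did it still pass. It also failed with the replicate number as a block (adjusted p = 0.0765). The difference between these later changes was 2.72 (SE 0.35, adjusted p = 0.0669), the lowest p among all genes. There 0 of 15819 genes passed in edgeR, 962 had an unadjusted p under 0.05, and DESeq2 called 8 genes, among them Ttn.

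**Figure D1:**
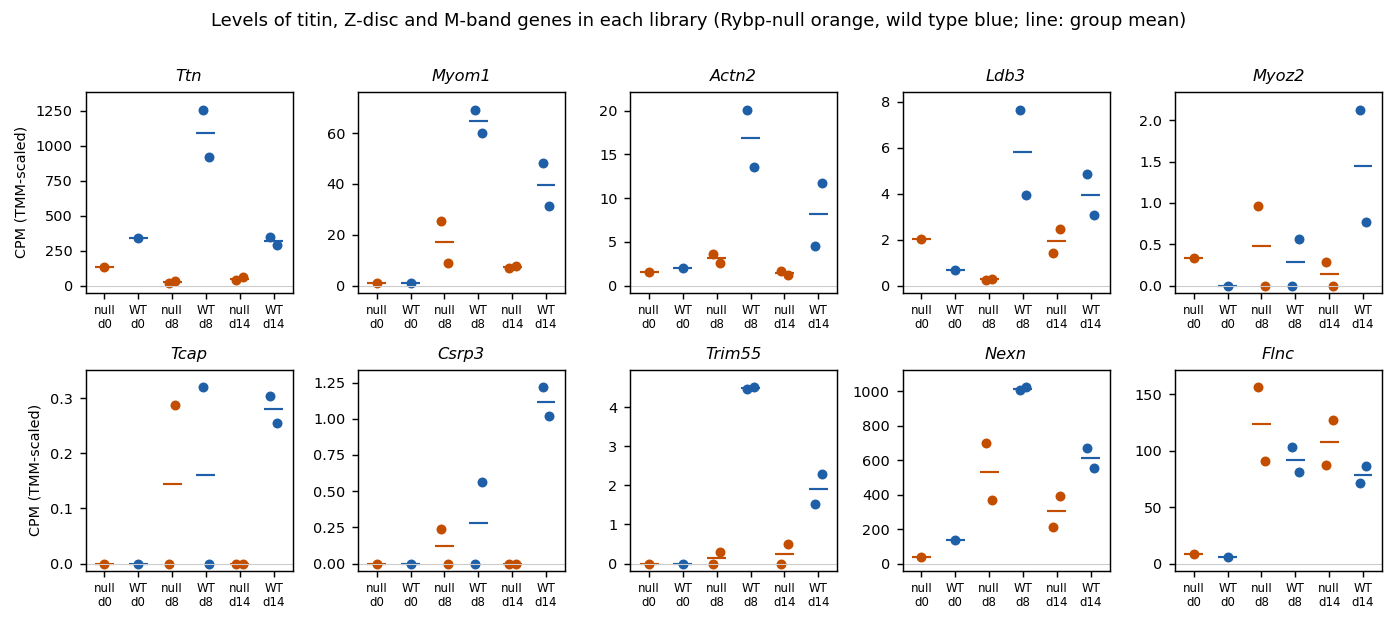
CPM (TMM-scaled, y axis, 1 scale per gene) of each of the 10 genes in every library, with null (orange) left of wild type (blue) at each day (d0, d8, d14); points are libraries and lines are group means. Wild type day 8 is the highest group for Ttn, Myom1, Actn2, Ldb3, Trim55 and Nexn, whereas for Flnc the null libraries of day 8, at 156 and 90.7 CPM, overlap the wild type libraries at 103 and 80.9 CPM.

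The M-band gene Myom1 (ENSMUSG00000024049, chromosome 17) was lower in null cultures at both days. Its level was 25.4 and 8.92 CPM in null against 69.3 and 60.0 CPM in wild type cultures at day 8, and 6.76 and 7.66 CPM against 48.4 and 31.1 CPM at day 14. The groups did not overlap at either day, and null replicate 1 of day 8 was nearest to the wild type range. On the log2 scale Myom1 differed by −1.90 at day 8 (SE 0.40, edgeR adjusted p = 0.0421) and by −2.45 at day 14 (SE 0.44, adjusted p = 0.0254). Both calls depended on single libraries. At day 8 the adjusted p lay between 0.0602 and 0.326 without wild type day 8 replicate 1 or 2, wild type day 14 replicate 1 or 2 or null day 8 replicate 2. At day 14 it lay between 0.0578 and 0.135 without any 1 of the wild type libraries of days 8 and 14 or either null day 14 library. In ES cells Myom1 held 6 counts in the null and 3 in the wild type library, while Myl12a, whose exons overlap it on the other strand, held 1237 and 748, so that at least 748 Myl12a counts stood beside a few of Myom1. From day 0 to day 8 Myom1 rose by 4.05 on the log2 scale in null cells (SE 0.72, adjusted p = 0.000916) and by 5.98 in wild type cells (SE 0.80, adjusted p = 0.000104), and the difference of −1.93 (SE 1.30, adjusted p = 0.734) did not pass.

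Of the Z-disc genes proper, Ldb3 was called lower in null cultures at day 8, and Actn2 fell just outside the threshold. Ldb3 reached the filter on low counts, 2.89 CPM by library total, in 4 of 5 wild type libraries and 0 of 5 null libraries. It thus entered the test only through the genotype in which it is high and had to differ, so its calls are given as a description. Actn2 (ENSMUSG00000052374, chromosome 13), the sarcomeric alpha-actinin, was at 3.63 and 2.59 CPM in null against 20.1 and 13.5 CPM in wild type cultures at day 8, and at 1.69 and 1.24 CPM against 4.56 and 11.7 CPM at day 14. The null libraries lay below both wild type libraries at each day. Its log2 fold change was −2.41 at day 8 (SE 0.54, edgeR adjusted p = 0.0514) and −2.48 at day 14 (SE 0.61, adjusted p = 0.0939). At day 8 the edgeR adjusted p was 0.0498 with relative log expression factors and 0.0411 in a fit without the day 0 libraries. Without the filter on low counts it was 0.000968. With DESeq2 and with the replicate block Actn2 did not pass at day 8. Ldb3 (ENSMUSG00000021798, chromosome 14) held 1 count in each null library of day 8 and 24 and 14 counts in the wild type libraries, a wild type to null ratio of 21.6 with a counting interval of 5.59 to 185. Its fitted log2 fold change was −4.29 (SE 0.86, adjusted p = 0.0312). Leaving out any 1 of the libraries of day 8 or of wild type day 14 gave an adjusted p of 0.0541 to 0.326, DESeq2 gave 0.0823 and the replicate block 0.0539. At day 14 Ldb3 was at 1.41 and 2.47 CPM in null against 4.87 and 3.06 CPM in wild type cultures, and the log2 fold change of −0.997 (SE 0.65, adjusted p = 0.595) did not pass.

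In ES cells Ldb3 held 12 counts in the null and 2 in the wild type library, the other order of the genotypes from that of day 8. The null to wild type ratio of 3.08 has a counting interval of 0.685 to 28.3, so a difference at day 0 was not detectable at this depth. From day 0 to day 8 Ldb3 fell in null cells (log2 fold change −2.80, SE 1.02, edgeR adjusted p = 0.0465) and rose in wild type cells (3.07, SE 1.02, adjusted p = 0.0302). The fall in null cells, on 14 counts in 3 libraries, had an adjusted p of 0.172 in DESeq2 and of 0.0513 to 0.145 when any 1 library of day 8 or 14 was left out, null day 14 replicate 1 excepted, and the rise in wild type cells one of 0.13 there and of 0.133 without wild type day 8 replicate 1. The difference between the changes was −5.87 (SE 1.44, adjusted p = 0.171) and did not pass.

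Myoz2 (ENSMUSG00000028116, chromosome 3), Tcap (ENSMUSG00000007877, chromosome 11) and Csrp3 (ENSMUSG00000030470, chromosome 7), whose proteins bind within the Z-disc, were close to the limit of detection and were not tested, since they failed the filter on low counts. Myoz2 held 4 and 0 counts in null against 0 and 2 in wild type libraries at day 8, and 1 and 0 against 7 and 3 at day 14. The day 14 counts give a wild type to null ratio of 10.5 with a counting interval of 1.50 to 458. Csrp3 held 1 and 0 counts in null against 0 and 2 in wild type libraries at day 8. It held 0 counts in both null libraries of day 14 against 4 in each wild type library, which makes it at least 2.81-fold lower in null cultures, taking the floor of 3 counts for the group. Tcap held at most 1 count in any library. At this depth a difference in Tcap was not detectable.

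Trim55 (ENSMUSG00000060913, chromosome 3) had most of its counts in wild type cultures. It held 0 and 1 counts in null against 14 and 16 counts in wild type libraries at day 8, and 0 and 2 against 5 and 9 at day 14. It passed the filter on low counts only through the wild type libraries of day 8, where it is high, and so had to differ. The wild type to null ratio was 34.2 (counting interval 5.68 to 1395) at day 8 and 7.38 (1.70 to 66.9) at day 14. The fitted log2 fold changes of −4.77 (SE 1.24, edgeR adjusted p = 0.0884) and −2.74 (SE 1.19, adjusted p = 0.356) did not pass. In ES cells Trim55 held 0 counts in both libraries, and in wild type cultures of day 8 it was at least 4.54-fold higher than at day 0. That change had an adjusted p of 0.0261, and of 0.0644 and 0.0664 without wild type day 8 replicate 1 or 2.

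The actin-binding genes Nexn and Flnc were abundant in both genotypes at days 8 and 14. Nexn (ENSMUSG00000039103, chromosome 3) was at 699 and 368 CPM in null against 1008 and 1022 CPM in wild type cultures at day 8, and at 209 and 395 CPM against 669 and 553 CPM at day 14. The null libraries lay below the wild type libraries at both days, but they differed more among themselves than the wild type libraries did. The log2 fold change was −0.93 at day 8 (SE 0.33, 95% interval −1.65 to −0.20, edgeR adjusted p = 0.237) and −1.02 at day 14 (SE 0.33, interval −1.75 to −0.29, adjusted p = 0.213), and neither passed. In ES cells the Nexn level was also lower in the null library, with 37.7 CPM against 134 CPM in the wild type library, a ratio of 0.282 (counting interval 0.239 to 0.333) without a replicate check. From day 0 to day 8 it rose in null cells by 3.82 (SE 0.50, adjusted p = 0.000234) and in wild type cells by 2.92 (SE 0.47, adjusted p = 0.000774), and the difference of 0.90 (SE 0.58, adjusted p = 0.723) did not pass.

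Flnc (ENSMUSG00000068699, chromosome 6) was the only tested gene of the 7 whose estimate was higher in null cultures. It was at 156 and 90.7 CPM in null against 103 and 80.9 CPM in wild type cultures at day 8, where the groups overlapped, and at 87.8 and 127 CPM against 71.2 and 86.8 CPM at day 14, where they barely did not. The log2 fold change of 0.43 at day 8 (SE 0.27, 95% interval −0.17 to 1.02, edgeR adjusted p = 0.548) became −0.03 without null day 8 replicate 1, and 0.44 at day 14 (SE 0.28, interval −0.15 to 1.04, adjusted p = 0.57) did not pass. The 745 tested genes of chromosome 6 had a median of 0.22 at day 8 and 0.19 at day 14, and their part in the Flnc estimate was not tested. Ldb3 lies on chromosome 14, whose tested genes had medians of 0.36 and 0.37. From day 0 to day 8 Flnc rose in null cells by 3.86 (SE 0.43, adjusted p = 2.88e-05) and in wild type cells by 4.03 (SE 0.48, adjusted p = 4.15e-05).

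**Figure D2:**
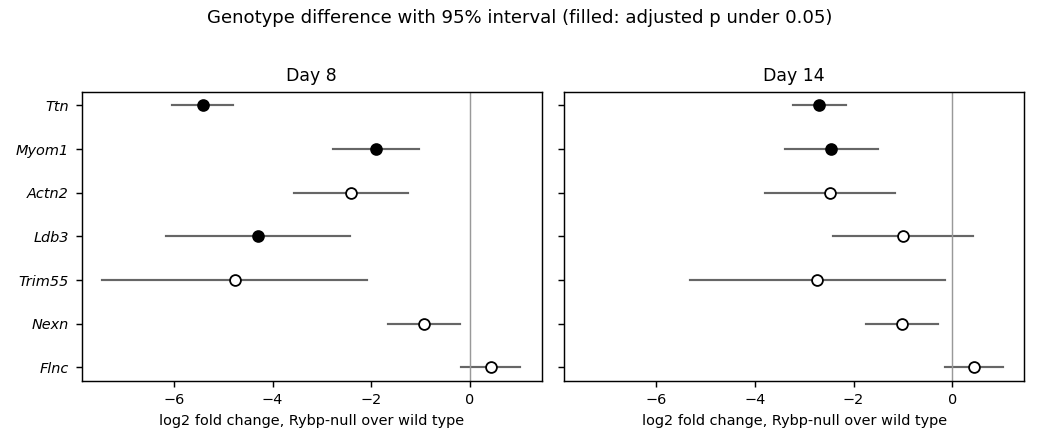
Log2 fold change of null over wild type (x axis) with its 95% interval for the 7 tested genes at day 8 (left) and day 14 (right), filled where the adjusted p was under 0.05. Ttn lies at −5.42 at day 8 and −2.69 at day 14, Nexn near −1 on both days and Flnc to the right of 0.

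Of the 10 genes, 7 were tested, and Ldb3 and Trim55 among them reached the filter on low counts in wild type libraries only. At day 8, 3 were lower in null cultures (Ttn, Myom1 and Ldb3), 0 were higher and 4 did not pass, where 0.759% of all tested genes were lower and 0.506% higher (1.26% in either direction). At day 14, 2 were lower (Ttn and Myom1), 0 were higher and 5 did not pass, against 0.354% lower and 0.259% higher of all tested genes (0.613% in either direction). Among the 5 genes that reached the filter in both genotypes, 2 were lower at each day, Ttn and Myom1. The median log2 fold change of the 7 was −2.41 at day 8 and −2.45 at day 14, beside 0.01 and −0.01 over all tested genes; since low genes enter the test through the group where they are high, these medians describe the 7 and not the 10. Estimates at day 8 ran from −5.42 for Ttn to 0.43 for Flnc. Calls among the 7 apart from Ttn depended on single libraries, as given with each gene: the number lower at day 8 was 1 without wild type day 8 replicate 1 or 2, wild type day 14 replicate 2 or null day 8 replicate 2, and at day 14 it was 1 without any 1 of 6 libraries.

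From ES cells to day 8, Nexn and Flnc rose in both genotypes, and Ttn fell in null cells and rose in wild type cells. These are the 3 genes that reached the filter on low counts at day 0 as well. Myom1, Actn2, Ldb3 and Trim55 reached it only at days 8 and 14, which favours a rise in the genotype that reached it, and their calls are a description. In null cells Myom1, Nexn and Flnc rose, Ttn and Ldb3 fell and Actn2 and Trim55 did not pass, where 19% of all tested genes were higher and 18.6% lower (37.7% in either direction). In wild type cells all 7 were called higher, where 21.2% of all tested genes were higher and 19.3% lower (40.5% in either direction), and Trim55 and Ldb3 did not pass in DESeq2. Actn2 had a log2 fold change of 1.02 in null (SE 0.75, edgeR adjusted p = 0.308) and 3.06 in wild type cells (SE 0.77, adjusted p = 0.00734), a difference of −2.04 (SE 1.10, adjusted p = 0.638) that did not pass. Between days 8 and 14 only Ttn passed, upward in null cultures, where 4.29% of tested genes were higher and 3.41% lower (7.69% in either direction). In wild type cultures Ttn passed downward, where 1.57% were lower and 2.47% higher (4.04% in either direction). Nexn was at −0.82 in null (SE 0.33, adjusted p = 0.174) and −0.73 in wild type cultures (SE 0.32, adjusted p = 0.296) over those days, and Myom1 at −1.26 (SE 0.44, adjusted p = 0.112) and −0.70 (SE 0.38, adjusted p = 0.398). The day 8 libraries are shared by these comparisons.

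Set on a common scale per kb of annotated exon, Nexn was the most abundant of the 10 in every group. At day 8 it reached 139 CPM per kb for null and 265 CPM per kb for wild type cultures, above 97.9% and 99.1% of the tested genes. Flnc reached 13.1 CPM per kb for null and 9.79 CPM per kb for wild type cultures at that day, beside 0.219 and 9.32 CPM per kb for Ttn and 1.64 and 6.18 CPM per kb for Myom1. Ttn, Flnc and Myom1 thus had levels of the same order in wild type cultures, whereas Flnc stood far above Ttn in null cultures. The ratio of Ttn to Nexn CPM within a library was 0.0284 and 0.0852 in null against 1.25 and 0.899 in wild type libraries at day 8, and 0.195 and 0.147 against 0.518 and 0.528 at day 14. In ES cells it was 3.50 in the null and 2.55 in the wild type library, so that the genotypes were closest at day 0 and most apart at day 8.

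Several of the genes belong to families with members outside striated muscle. Of the paralogs tested and reported, none was called lower in null cultures at day 8 or 14. Of all tested genes 0.759% were lower at day 8 and 0.354% at day 14. For so few paralogs, no call is near that share. Among their muscle forms, Actn2 was not called either, Flnc had a higher estimate and Csrp3 was not tested. Actn2 stood beside Actn1 and Actn4, the alpha-actinins of non-muscle cells. Actn1 was at 137 and 117 CPM in null against 199 and 180.1 CPM in wild type cultures at day 8 (null over wild type on the log2 scale −0.58, SE 0.17, edgeR adjusted p = 0.142) and Actn4 at 81.2 and 86.1 CPM against 87.8 and 114 CPM (−0.28, SE 0.19, adjusted p = 0.582). Flna, a filamin of non-muscle cells, was at 703 and 419.6 CPM in null against 753 and 651 CPM in wild type cultures (−0.32, SE 0.23, adjusted p = 0.594). Csrp1, a LIM protein of smooth muscle, was at 116 and 113 CPM in null against 96.8 and 109 CPM in wild type cultures at day 8 (0.16, SE 0.20, adjusted p = 0.799), and Csrp2 at 63.8 and 50.1 CPM against 46.3 and 61.2 CPM (0.08, SE 0.29, adjusted p = 0.941). At day 14 Csrp1 was at 129.8 and 104 CPM in null against 76.9 and 62.5 CPM in wild type cultures (0.74, SE 0.20, adjusted p = 0.12), which did not pass although the groups did not overlap. Csrp1 lies on chromosome 1, whose 906 tested genes had a median of 0.41 at day 14, and their part in its estimate was not tested. The null libraries of Actn1 lay below both wild type libraries at day 8. The differences between paralogs were not tested against each other. The other paralogs were scarce: Actn3 and Trim63 held at most 21 and 16 counts in a library and did not pass, and Myom2, Myom3, Myoz1, Myoz3 and Trim54 failed the filter on low counts.

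**Figure D3:**
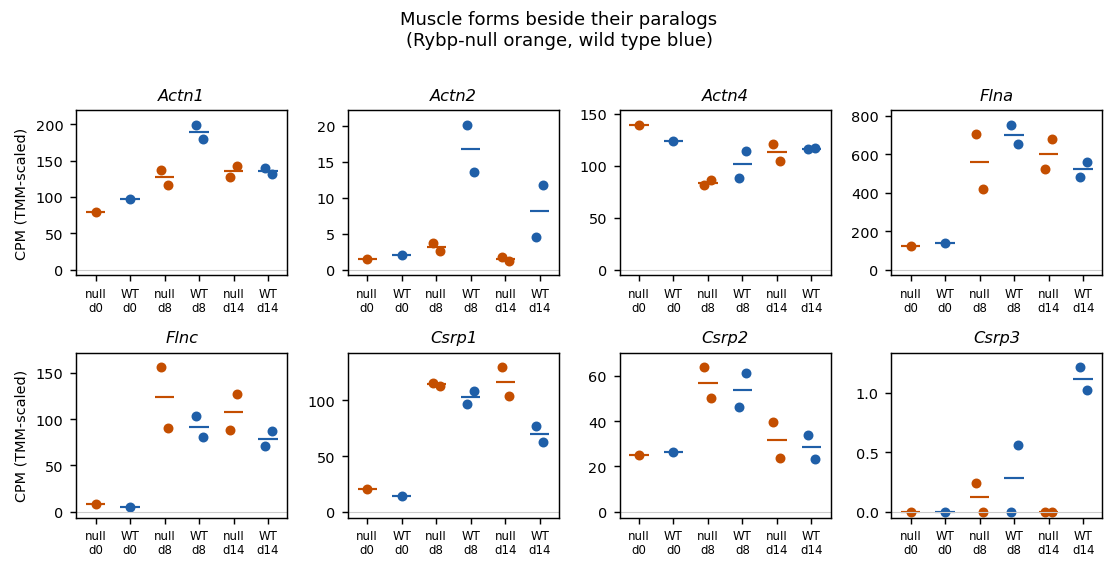
CPM (TMM-scaled, y axis, 1 scale per gene) of 3 alpha-actinins, 2 filamins and 3 cysteine-rich LIM proteins in each library, with null (orange) left of wild type (blue) at each day; points are libraries and lines group means. Actn2 is low in null cultures at days 8 and 14, while Actn4, Flna and Csrp2 overlap or lie near wild type levels at day 14.

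Among 50 other genes of the Z-disc, the M-band and the titin complex, 37 were tested. At day 8, 1 was lower in null cultures, 0 were higher and 36 did not pass, where 0.759% of all tested genes were lower. The lower gene was Nebl, which encodes nebulette, a Z-disc protein of heart muscle that binds actin and alpha-actinin. It was at 7.98 and 12.7 CPM in null against 177 and 133 CPM in wild type cultures (null over wild type on the log2 scale −3.91, SE 0.43, edgeR adjusted p = 0.000921), and at 14.1 and 4.45 CPM against 34.4 and 24.0 CPM at day 14 (−1.67, SE 0.43, adjusted p = 0.115). Nebl was called under every alternative run at day 8. The medians of the 37 were −0.28 at day 8 and −0.01 at day 14, and −0.28 at day 8 also with the 2 genes at 0 counts held at their bound. Desmin (Des), the muscle intermediate filament protein, was at −0.59 at day 8 (SE 0.36, adjusted p = 0.53), and its day 14 value was −0.96 (SE 0.37, adjusted p = 0.276). The small heat shock proteins Cryab and Hspb7, which protect Z-disc and filamin proteins, were at −0.46 (SE 0.23, adjusted p = 0.425) and 0.26 (SE 0.28, adjusted p = 0.758) at day 8. The PDZ-LIM gene Pdlim5 was at −1.01 (SE 0.25, adjusted p = 0.0777), and Obsl1, an obscurin-like protein, at 0.80 (SE 0.24, adjusted p = 0.154). Des and Obsl1 lie on chromosome 1, whose 906 tested genes had medians of 0.42 at day 8 and 0.41 at day 14. The part of that shift in their estimates was not tested. Xirp1, which encodes an actin-binding repeat protein of muscle, held 1 and 0 counts in null against 9 and 24 in wild type libraries at day 8, and its wild type to null ratio of 37.6 had a counting interval of 6.29 to 1529.6. Xirp1 held at most 3 counts in any null library, too few to reach the filter on low counts, 2.89 CPM. It thus entered the test only through wild type libraries and had to differ, so the ratio is a description. The edgeR test did not call it (adjusted p = 0.128).

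**Figure D4:**
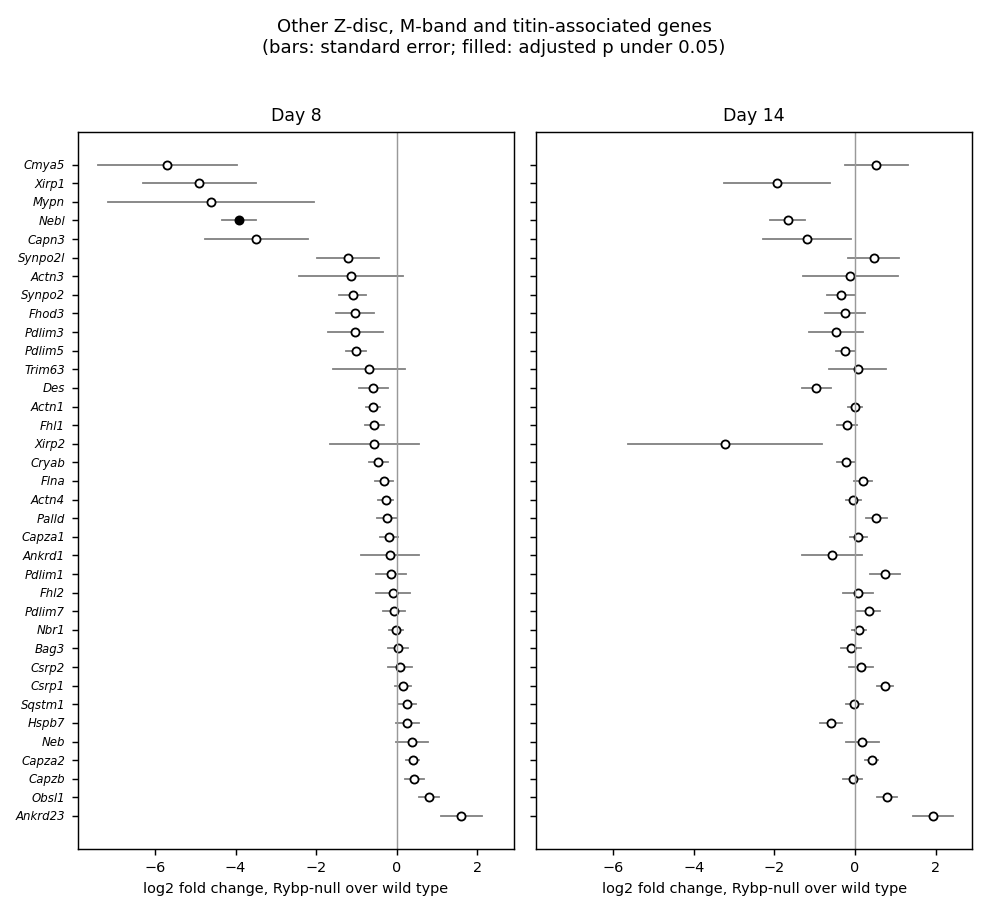
Log2 fold change of null over wild type (x axis) with its standard error for 36 other Z-disc, M-band and titin-associated genes at day 8 (left) and day 14 (right), in the order of day 8 and filled where the adjusted p was under 0.05; Mypn, at 0 counts in both groups of day 14, has no point there. Nebl at −3.91 is the filled point of day 8, and for Mypn and Cmya5, at 0 counts in null libraries of day 8, the fitted value depends on the prior count.

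Over time, of the 37 genes 17 rose, 5 fell and 15 did not pass in null cells between day 0 and day 8, where 19% of all tested genes were higher and 18.6% lower. In wild type cells 16 rose, 1 fell and 20 did not pass, where 21.2% were higher and 19.3% lower. Nebl, Cryab and Hspb7, for example, held at most 11 counts at day 0 and reached the filter on low counts only at days 8 and 14. That favours a rise, so the counts from day 0 to day 8 are a description. From day 8 to day 14, 3 rose and 1 fell in null cultures, where 4.29% of all tested genes were higher and 3.41% lower. In wild type cultures 0 rose and 2 fell over those days, where 2.47% were higher and 1.57% lower. Nothing about the list is read from the counts over those days. The LIM gene Fhl1, whose protein binds titin, fell in both, by 1.12 on the log2 scale in null (SE 0.24, edgeR adjusted p = 0.0147) and by 1.47 in wild type cultures (SE 0.24, adjusted p = 0.00528). Its difference between the genotypes over those days was 0.36 (SE 0.34, adjusted p = 0.958). Nebl was at −0.17 in null cultures (SE 0.46, adjusted p = 0.893) and fell by 2.41 in wild type cultures (SE 0.39, adjusted p = 0.00546), a difference of 2.25 (SE 0.60, adjusted p = 0.641) that did not pass. The genes that rose in null cultures were Fhl2, at 17.7 and 30.4 CPM on day 14 against 9.43 and 6.91 CPM on day 8, Pdlim5, at 49.3 and 80.8 CPM against 36.3 and 31.9 CPM, and Cmya5, which held 11 and 19 counts against 0 and 0. Each of these calls between days 8 and 14 was lost without 1 or more single libraries, with adjusted p-values of 0.0513 to 0.33.

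The genes whose levels over the 10 libraries were most like the mean standardised level of the 7 tested genes were Slitrk4, Ift172, Steap2, Ryr2 and Actc1, among 11261 other genes with a mean of at least 5 CPM. Pearson's r with that mean was 0.983 for Slitrk4, 0.967 for Ift172, 0.963 for Steap2, 0.960 for Ryr2 and 0.959 for Actc1, as a description over 10 libraries that share 6 groups. The 7 genes did not share 1 profile. With the same mean, r was 0.658 for Ttn and 0.575 for Flnc, the lowest of the 7, and 0.960 for Trim55, the highest. Between Ttn and Flnc r was −0.228, so likeness to the mean is not likeness to each gene. Among the 5 similar genes, Ryr2 is the cardiac calcium release channel and Actc1 cardiac actin. As group means at day 8, Slitrk4 was at 4.14 CPM in null cultures, against 23.9 CPM in wild type cultures. Ift172 was at 11.3 CPM in null cultures, against 20.1 CPM in wild type cultures.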

How the data were processed

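Reads were processed by the authors. The submitters' processing notes name TopHat, HTSeq, DESeq and mm9; versions, annotation release and strand setting were not given in the sources used here. The deposited table holds whole-number counts per Ensembl gene, not normalized by the authors. Symbols matched 30946 of 36191 IDs; chromosomes and exon lengths came from GENCODE vM21 (GRCm38), and promoters from RefSeq.

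Counts were tested with edgeR 4.0.16 in R 4.3.3: filterByExpr with a minimum count of 10 kept 15819 genes, TMM factors scaled the libraries, and a robust quasi-likelihood model was fitted to all 10 libraries with 1 coefficient per group, leaving 4 residual degrees of freedom. Two-sided p-values were adjusted after Benjamini-Hochberg over all tested genes, and a gene was called under 0.05. Each standard error is the size of the log2 fold change divided by the root of F, and so restates the p. The fit was tested on simulated data. DESeq2 1.42.0, other scalings and filters, a replicate block and leaving out each library were alternatives.

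The members, the list of 50 other genes and the markers were chosen with earlier results of these data known. Named genes are the members, their paralogs, genes of that list called between genotypes, the 5 most similar genes, and a few list genes (Des, Cryab, Hspb7, Pdlim5, Obsl1, Xirp1, Fhl1, Fhl2 and Cmya5) chosen after their values were seen. A result for 1 gene of that list is not reported here.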

Additional observations from a re-analysis of the deposited data

Results flagged for a closer look

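The change of Ttn from ES cells to day 8 differed between the genotypes: it fell in null and rose in wild type cells, and the difference was −4.05 on the log2 scale (edgeR adjusted p = 0.00831). Every day 8 library of each genotype moved in the direction of its group, with null libraries at 19.8 and 31.4 CPM against 132 CPM in null ES cells, and wild type libraries at 1258.5 and 918 CPM against 341 CPM in wild type ES cells. The day 0 value rests on 1 library per genotype.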

How the results depend on the processing

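Ttn was lower in null cultures at days 8 and 14 and called under every alternative run, with log2 fold changes of −5.78 to −5.12 and of −2.97 to −2.46 on leaving out a library. Of 330 values of members under other settings 310 kept direction and side of the threshold, 7 no longer passed, 13 newly passed and 0 reversed; of 440 without a library these were 379, 34, 7 and 20.

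Without a filter on low counts, the genotype comparison called 6 members lower at day 8 and 4 at day 14. It called 708 and 637 genes, and all gene counts in this paragraph are in either direction. Without the filter every gene with a count is tested, more than the 15819, so these counts are not set against the shares given above. In that setting the day 14 against day 8 interaction called 1 member and 65 genes, the day 8 against day 0 interaction 2 members and 273 genes, the wild type change from day 8 to 14 2 members lower and 1244 genes, and the null change 2 members lower and 1892 genes. DESeq2 called 192 genes at day 14, 1 member and 8 genes in the later interaction and, in the interaction with day 0, 58 genes, 34 lower and 24 higher, against 2 and 3. For null cells from day 0 to day 8, DESeq2, no filter and a minimum count of 30 each left 1 member lower. The cause was not tested. With fewer libraries, members lower ran from 1 to 4 at day 8 and 1 to 2 at day 14, and genes called from 28 to 324 and 14 to 301. Over the later interaction 0 to 1 members were higher and 0 to 2 genes called, over the interaction with day 0 0 to 1 members were lower and 0 to 46 genes called. For days 8 to 14 the wild type change called 108 to 935 genes, and the null change 613 to 1243 genes, 0 to 1 members lower and 0 to 1 higher. From day 0 to day 8 in null cells 1 to 2 members were lower.

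Values near 0 changed sign without a library: Flnc at day 8 (−0.0287 to 0.76), in the null change from day 8 to 14 (−0.54 to 0.25), in the later interaction (−0.32 to 0.47) and in that with day 0 (−0.62 to 0.17). Trim55 ran from −2.32 to 3.17 in that null change and from −1.11 to 4.38 in the later interaction, where Myom1 (−1.10 to 0.41), Actn2 (−0.57 to 0.78) and Nexn (−0.62 to 0.45) also crossed 0. Deviations of same-numbered libraries correlated at 0.07 between genotypes at day 8 and 0.16 at day 14. Each group gives only 1 difference between its replicates, so these values cannot tell whether same-numbered libraries share a batch or a culture. With the replicate block 138 and 74 genes were called between the genotypes at days 8 and 14. In that fit 0 members were higher in the null change from day 8 to 14. Same-numbered null libraries of days 8 and 14 correlated at −0.21, and exchanging the numbers (chosen after seeing the data) called 1237 genes, 1 member lower and 0 higher. Depth limits Myoz2, Tcap and Csrp3.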
